A study of Rattus norvegicus with 6 samples.

Results

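Preneoplastic liver foci are small clones of altered hepatocytes that precede liver tumours in rats given carcinogens, and they are recognised by enzymes and surface proteins that normal adult hepatocytes make little of. Oncofetal genes are active in fetal liver, are shut down after birth and can return in regenerating or malignant liver. The 8 genes examined here were Afp, Igf2, Gpc3, Cd44, Ggt1, Akr1b8, Akr1b10 and Aldh3a1. They were chosen by name, and every array probe whose RefSeq accession belonged to one of them was taken, which gave 17 of the 61657 probes other than controls and 8 of the 15284 genes they were matched to.

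Liver RNA of male Sprague-Dawley rats, bought at 5 weeks of age and kept on a basal diet, was hybridised to 1-colour arrays, 1 array per animal. Phenolphthalein, formerly an over-the-counter laxative, was given to 3 animals at 1000 mg per kg per day, and 3 animals received corn oil. The labels name 9 weeks of dosing in the protocol but 28 days in the design text, and they do not say in what the phenolphthalein was dissolved. The phenolphthalein arrays lay on slide 2 and the corn oil arrays on slide 1, scanned on different days, so no difference below separates treatment from slide or scan day: the 3 cannot be told apart. All 12 hepatocyte markers, among them Alb and Ttr, were well above background on all 6 arrays. The 75th percentile of the signal was 551 to 578 on the phenolphthalein arrays and 595 to 636 on the corn oil arrays. Levels below are log2 signals relative to that percentile, so 0 is a probe at the percentile, and a level can be set beside the same probe on another array but not beside another probe.

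The promoters of 3 of these genes are shown. Afp was taken because its promoter is the textbook case of liver factor binding and its regulators are described below. Akr1b8 and Akr1b10 were taken because they are neighbours, with 0 protein-coding genes between them, of which Akr1b8 was detected on every array and Akr1b10 on none. The sequences are RefSeq's, build GRCr8, the 250 bases before the annotated start, 5′ to 3′. Capitals mark matches to 7 short motifs on either strand.
Afp, chr14:17875646-17875895, minus strand: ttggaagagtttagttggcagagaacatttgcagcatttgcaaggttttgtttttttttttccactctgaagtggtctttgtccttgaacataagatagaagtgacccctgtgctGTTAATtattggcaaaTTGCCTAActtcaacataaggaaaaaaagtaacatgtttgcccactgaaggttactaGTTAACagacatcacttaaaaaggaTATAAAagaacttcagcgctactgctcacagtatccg
Akr1b8, chr4:63964171-63964420, plus strand: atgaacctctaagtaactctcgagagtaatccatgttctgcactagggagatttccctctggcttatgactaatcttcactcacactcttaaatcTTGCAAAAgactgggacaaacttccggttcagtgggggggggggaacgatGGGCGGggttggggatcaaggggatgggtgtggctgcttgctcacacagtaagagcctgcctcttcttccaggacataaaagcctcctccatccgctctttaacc
Akr1b10, chr4:64005382-64005631, plus strand: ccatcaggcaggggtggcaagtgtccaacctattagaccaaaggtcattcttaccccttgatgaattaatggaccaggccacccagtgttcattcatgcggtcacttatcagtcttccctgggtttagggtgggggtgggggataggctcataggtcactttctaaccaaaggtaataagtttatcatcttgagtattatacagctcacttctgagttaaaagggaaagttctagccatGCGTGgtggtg

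The motifs searched were the TATA box TATAAA, the HNF1 half-site letters GTTAAT and GTTAAC (a palindrome, counted once), the C/EBP motif TTGCNNAA, the AhR core GCGTG, the antioxidant core TGACNNNGC and the GC box GGGCGG. The Afp promoter held a TATA box starting 37 bases before the start, GTTAAC at 62 bases, TTGCCTAA at 119 bases and GTTAAT at 135 bases. Of all 33469 promoters in the table, 12.9% held the TATA box letters, 2.36% GTTAAC, 6.45% GTTAAT and 9.22% TTGCNNAA. The Akr1b8 promoter held a C/EBP match at 155 bases and a GC box at 105 bases, and GC box letters occur in 30.5% of all promoters. The Akr1b10 promoter held only the AhR core, at 11 bases, which 25.9% of promoters hold. No match overlapped another, and 7 of the 8 genes had an entry in the table.

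A probe was tested when at least 3 arrays called it well above background, which held for 12 of the 17 probes and 7 of the 8 genes. None of the 12 differed between phenolphthalein and corn oil at an adjusted p under 0.05 (limma with Benjamini-Hochberg adjustment over 39411 probes), where 0.0482% of all probes tested did. At an unadjusted p under 0.05, 2 of the 12 were lower and 0 were higher, against 6.37% lower and 6.84% higher among all probes. Both were probes of Cd44. The same 2 probes were the ones whose groups did not overlap, and 9.24% of all probes lay lower without overlap and 11.8% higher. The median log2 fold change of the 12 was 0.14, against 0.018 over all probes tested. Of the 12, 8 lay above 0 and 4 below, where 53.4% of all probes lay above and 46.6% below. Adjusted p ran from 0.288 to 0.868.

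**Figure D1:**
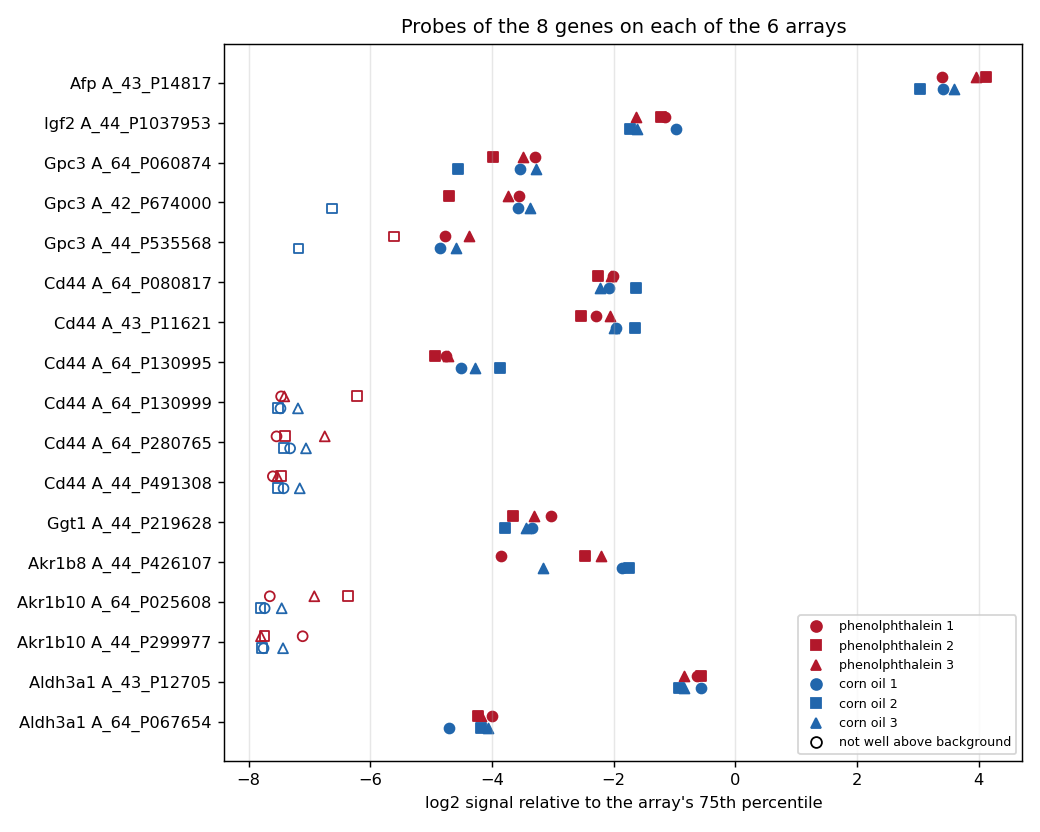
Log2 signal of each of the 17 probes relative to the array's 75th percentile, phenolphthalein in red above corn oil in blue, with a marker shape for each replicate and open markers where the spot was not well above background. Only Cd44 probes A_43_P11621 and A_64_P130995 have groups that do not overlap, and the 5 rows with open markers throughout are probes of Cd44 and Akr1b10 detected on 0 of 6 arrays.

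Among the secreted products, Afp codes for alpha-fetoprotein, the main serum protein of the fetus and a serum marker of hepatocellular carcinoma. Its single probe, A_43_P14817, read 3.41, 4.13 and 3.95 in phenolphthalein replicates 1 to 3, against 3.42, 3.04 and 3.59 in corn oil replicates 1 to 3. Phenolphthalein replicates 2 and 3 lay above all corn oil animals, while phenolphthalein replicate 1 lay just below corn oil replicate 1. The means were 3.83 ± 0.38 with phenolphthalein and 3.35 ± 0.28 with corn oil (SD, n = 3 each). The log2 fold change was 0.48 ± 0.23 (SE), a fold of 1.40 with a 95% interval of 0.939 to 2.07, and did not pass (limma adjusted p = 0.436). Leaving out 1 array moved it between 0.32 and 0.69. The unadjusted p was 0.0853, and it was 0.0222 with normexp background correction and 0.0154 without phenolphthalein replicate 1, while the adjusted p lay between 0.254 and 0.666 over the 16 alternatives (all limma).

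Igf2 codes for insulin-like growth factor 2, a fetal growth factor expressed from the paternal allele, whose liver expression in rodents falls after birth. Its probe, A_44_P1037953, read -1.15, -1.21 and -1.63 with phenolphthalein, against -0.98, -1.72 and -1.61 with corn oil. The groups overlapped, with corn oil replicate 1 the highest of the 6 animals and corn oil replicate 2 the lowest. The log2 fold change was 0.11 ± 0.24 (SE), with a 95% interval of -0.47 to 0.69 (limma adjusted p = 0.868), and it was -0.035 without corn oil replicate 2. H19, the imprinted noncoding RNA that neighbours Igf2, read -2.38, -4.17 and -3.15 with phenolphthalein, against -1.76, -3.08 and -3.37 with corn oil. H19 did not pass either (log2 fold change -0.50 ± 0.59, SE, limma adjusted p = 0.720).

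Gpc3, a surface proteoglycan held by a lipid anchor and used in human pathology as a marker of hepatocellular carcinoma, had 3 probes. Probe A_64_P060874 read -3.29, -3.99 and -3.49 with phenolphthalein, against -3.53, -4.55 and -3.28 with corn oil, and was well above background on all 6 arrays. Probe A_42_P674000 read -3.55, -4.71 and -3.73 with phenolphthalein, against -3.57, -6.62 and -3.38 with corn oil. Probe A_44_P535568 read -4.77, -5.61 and -4.38 with phenolphthalein, against -4.86, -7.18 and -4.58 with corn oil. All 3 probes were lowest in corn oil replicate 2 and next lowest in phenolphthalein replicate 2, and the remaining 4 animals lay close together. Probe A_42_P674000 was not well above background in corn oil replicate 2, and probe A_44_P535568 was not in phenolphthalein replicate 2 or corn oil replicate 2.

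The log2 fold changes of the 3 Gpc3 probes were 0.20 ± 0.37, 0.53 ± 0.91 and 0.62 ± 0.74 (SE), with limma adjusted p of 0.843, 0.830 and 0.744. Without corn oil replicate 2 they were -0.18, -0.52 and -0.20, so that 1 animal set the sign of all 3. The intervals were wide, and that of A_42_P674000 ran from -1.71 to 2.76 on the log2 scale.

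**Figure D2:**
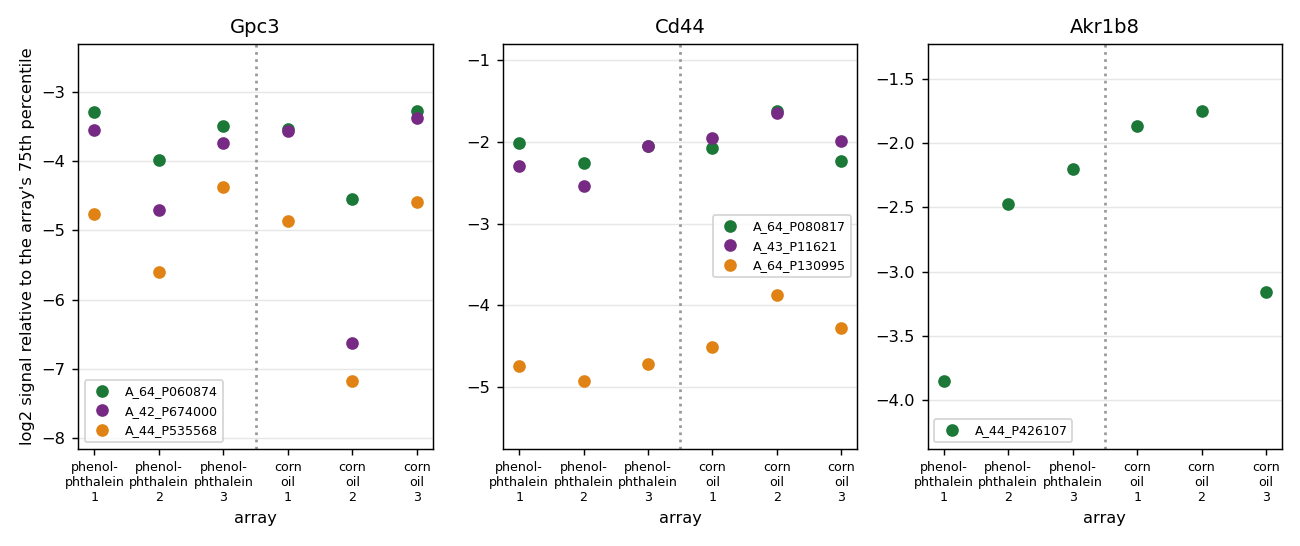
Log2 signal relative to the array's 75th percentile on each array, with phenolphthalein left of the dotted line and corn oil right of it, for the tested probes of Gpc3, Cd44 and Akr1b8. The Gpc3 probes are lowest in corn oil replicate 2, the Cd44 probes are highest there, and Akr1b8 is lowest in phenolphthalein replicate 1 (-3.85) and corn oil replicate 3 (-3.15).

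Cd44 codes for the main hyaluronan receptor, made by leukocytes and other cells outside the hepatocyte lineage and, in mice, by hepatocytes on the way to tumours. It had 6 probes, of which 3 were well above background on all 6 arrays and 3 on none. Probe A_43_P11621 read -2.29, -2.54 and -2.05 with phenolphthalein, against -1.96, -1.65 and -1.99 with corn oil. Probe A_64_P130995 read -4.75, -4.93 and -4.72 with phenolphthalein, against -4.51, -3.87 and -4.28 with corn oil. For both, every phenolphthalein animal lay below every corn oil animal, with phenolphthalein replicate 2 the lowest and corn oil replicate 2 the highest.

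Their log2 fold changes were -0.43 ± 0.16 and -0.58 ± 0.18 (SE), or folds of 0.742 and 0.669. The unadjusted p were 0.0378 and 0.0170 in limma, and the adjusted p 0.353 and 0.288. The Cd44 probe that stood for the gene in the fit over genes, A_64_P080817, overlapped between the groups. It read -2.01, -2.26 and -2.05 with phenolphthalein, against -2.07, -1.62 and -2.23 with corn oil, a log2 fold change of -0.13 ± 0.18 (SE, limma adjusted p = 0.778) that was 0.045 without corn oil replicate 2. A_64_P130995 lay close to the detection limit, since the lowest signal well above background was -5.49 to -5.13 across arrays, and with normexp background correction its log2 fold change was -0.0295. The 3 Cd44 probes that were never detected read between -7.60 and -6.22 with phenolphthalein and between -7.52 and -7.06 with corn oil.

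Markers of immune cells had lower values with phenolphthalein, as these Cd44 probes had. The median log2 fold change was -0.62 over 12 macrophage markers and -0.41 over 10 leukocyte markers, against 0.0096 over all 11434 genes tested. Neither list had a gene past the threshold (limma, adjusted over all genes), which 0.0612% of all genes were. All 12 and all 10 had a lower mean with phenolphthalein, where 48.2% of all genes did, 10 and 6 had an unadjusted p under 0.05 (limma, 8.11% of all genes lower), and 7 and 6 lay lower without overlap (11.0% of all genes). The summed macrophage level was 7.32 to 7.69 with phenolphthalein and 7.77 to 8.23 with corn oil on the log2 scale. The summed leukocyte level was 4.13 to 4.41 with phenolphthalein and 4.37 to 4.58 with corn oil, and no marker with a probe was undetected on all 6 arrays in either list. Such sums lean on the brightest probes. For leukocytes the brightest was Laptm5, which had the smallest change of that list, -0.15 in log2. Examples were Marco, a scavenger receptor, at -1.45 ± 0.28 (SE), Cd163, the haemoglobin scavenger receptor, at -0.63 ± 0.15, Cd68, a lysosomal protein of macrophages, at -0.69 ± 0.18, Ptprc, the leukocyte antigen CD45, at -0.59 ± 0.11 and Itgb2, an integrin of leukocytes, at -0.69 ± 0.15. In liver tissue, fewer cells of a type and less RNA per cell cannot be told apart, and the part of these cells in the Cd44 values was not tested. By median deviation, leukocyte markers were lowest in phenolphthalein replicate 2 (-0.31), as both lower Cd44 probes were, and macrophage markers in phenolphthalein replicate 1 (-0.48). Macrophage and leukocyte markers were highest in corn oil replicate 1 (0.53 and 0.37), and the Cd44 probes in corn oil replicate 2.

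**Figure D3:**
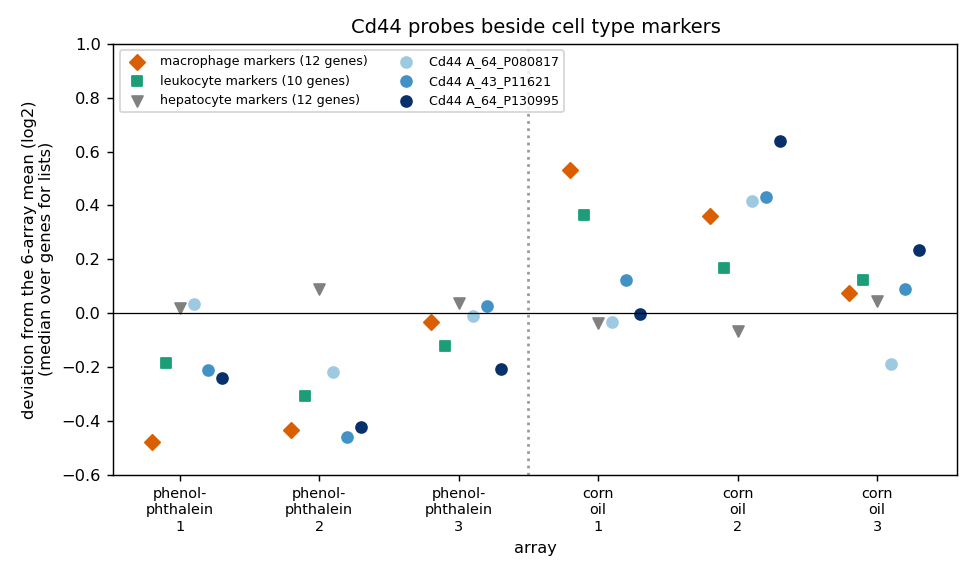
Deviation of each tested Cd44 probe, and the median deviation of macrophage, leukocyte and hepatocyte markers, from the mean over the 6 arrays in log2 units, phenolphthalein left of the dotted line and corn oil right of it. The macrophage median runs from -0.48 in phenolphthalein replicate 1 to 0.53 in corn oil replicate 1, while the hepatocyte median stays between -0.07 and 0.09.

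Genes related to Cd44 or its ligands, including some whose products bind neither, gave 17 tested members with a median log2 fold change of -0.01. By limma adjusted over all genes 0 passed, and at an unadjusted p under 0.05 there was 1 higher and 1 lower of the 17, where 7.16% of all genes were higher and 8.11% lower. The higher one was Spp1, osteopontin, a secreted ligand of Cd44, which read -1.72, -1.56 and -1.33 with phenolphthalein, against -2.64, -2.72 and -2.02 with corn oil. The difference was 0.92 ± 0.21 in log2 (SE, limma adjusted p = 0.194), and every phenolphthalein animal lay above every corn oil animal, as for 12.2% of all genes. The lower one was Cd74, the class II invariant chain and a signalling partner of Cd44, at -0.69 ± 0.11 (SE, limma adjusted p = 0.116). Rdx, a linker of Cd44 to actin named after its values were seen, had the lowest value of the list at -4.18. It read -7.59 in phenolphthalein replicate 1, against 4.59 to 4.87 in the 5 other animals, while its other probes, A_44_P146200 and A_64_P090479, read 1.42 to 1.64 and -1.57 to -1.21 in all 6.

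Ggt1 codes for gamma-glutamyl transpeptidase, which splits extracellular glutathione and is the classical histochemical marker of rat liver foci, also made by bile duct cells. Its probe, A_44_P219628, read -3.03, -3.66 and -3.31 with phenolphthalein, against -3.35, -3.78 and -3.43 with corn oil. The groups overlapped, with phenolphthalein replicate 1 the highest of the 6 animals and corn oil replicate 2 the lowest. The log2 fold change was 0.18 ± 0.20 (SE), with a 95% interval of -0.30 to 0.67 (limma adjusted p = 0.714). Of the 16 tested genes of the gamma-glutamyl cycle and the Ggt family, 0 passed in limma and the median was 0.02. At an unadjusted p under 0.05, 1 was higher and 1 lower, where 7.16% of all genes were higher and 8.11% lower. The higher one was glutathione reductase Gsr at 0.67 ± 0.10 (SE, limma adjusted p = 0.116). The lower one was the glutathione-degrading enzyme Chac1 at -0.47 ± 0.17 (SE, limma adjusted p = 0.286). The Chac1 value came from probe A_64_P112406. Its probe A_44_P776556 overlapped, at -2.142 to -1.843 with phenolphthalein, against -2.254 to -1.486 with corn oil.

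Bile duct and progenitor markers had a median of 0.29 over 7 tested genes, which was the value of Epcam itself. Of the 7, 4 lay above 0 and 3 below, where 51.8% of all genes lay above. In limma 0 passed. At an unadjusted p under 0.05, 2 were higher, Spp1 and Epcam, where 7.16% of all genes were higher. Epcam, a surface protein of bile duct and progenitor cells, read 0.37, 0.44 and 0.37 with phenolphthalein, against 0.11, 0.0010 and 0.21 with corn oil, without overlap and with an adjusted p of 0.239 in limma. The difference for Krt19, a bile duct keratin, was -0.09 ± 0.21 in log2 (SE). The median of the list was 0.0987 without corn oil replicate 2.

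Akr1b8 and Akr1b10 are aldo-keto reductases that turn reactive aldehydes into alcohols, and human AKR1B10 is raised in hepatocellular carcinoma. Akr1b8, probe A_44_P426107, read -3.85, -2.47 and -2.20 with phenolphthalein, against -1.87, -1.75 and -3.15 with corn oil. It had the largest SD of any probe of the 8 genes detected on all 6 arrays, 0.89 with phenolphthalein and 0.78 with corn oil, and each group held 1 animal well below the other pair. The log2 fold change was -0.58 ± 0.56 (SE, limma adjusted p = 0.683), and it ran from -1.03 without corn oil replicate 3 to -0.08 without phenolphthalein replicate 1. Akr1b10 was not well above background on any array with either of its probes. They read -7.80 to -6.36 with phenolphthalein and -7.80 to -7.43 with corn oil, and no fold is given.

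Aldh3a1 codes for an aldehyde dehydrogenase that is low in normal rat liver, is found in carcinogen-induced rat liver tumours and is induced through the aryl hydrocarbon receptor AhR. Its probe A_43_P12705 read -0.63, -0.57 and -0.84 with phenolphthalein, against -0.56, -0.93 and -0.85 with corn oil. The fold was 1.07, with a 95% interval of 0.851 to 1.34 (log2 fold change 0.10 ± 0.13, SE, limma adjusted p = 0.785), the narrowest interval of the 12 tested probes. Probe A_64_P067654 read -4.00, -4.24 and -4.18 with phenolphthalein, against -4.71, -4.18 and -4.07 with corn oil, a log2 fold change of 0.18 ± 0.19 (SE, limma adjusted p = 0.702) and -0.013 without corn oil replicate 1. Both Aldh3a1 probes overlapped between the groups.

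**Figure D4:**
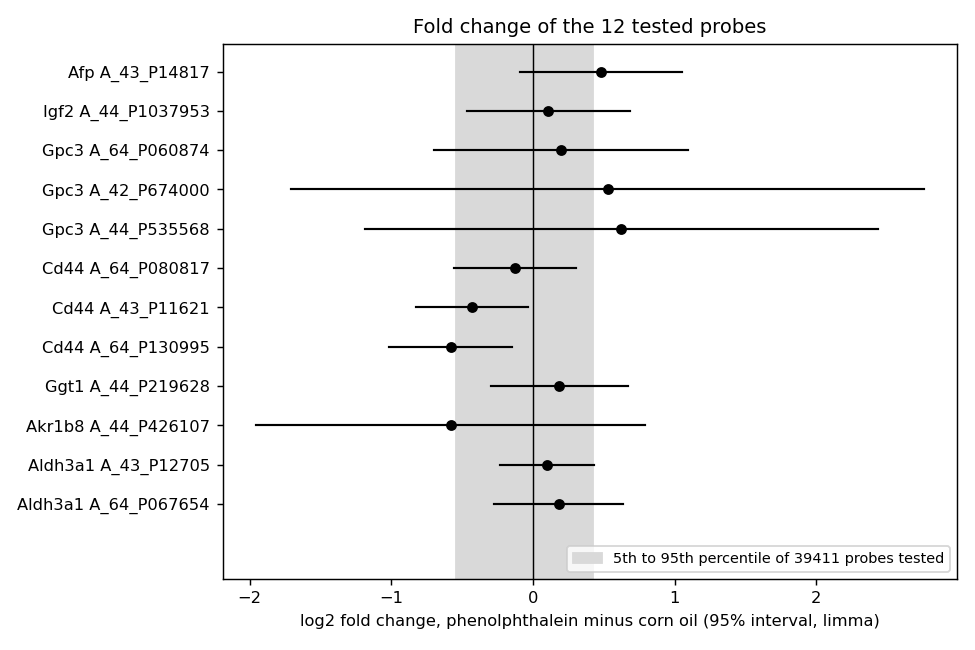
Log2 fold change, phenolphthalein minus corn oil, of the 12 tested probes with 95% limma intervals as bars, over a grey band for the 5th to 95th percentile of all 39411 tested probes (-0.55 to 0.42). Only the intervals of Cd44 probes A_43_P11621 and A_64_P130995 leave out 0, and those of Gpc3 and Akr1b8 are the widest.

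Genes that share control by AhR or NRF2 with Aldh3a1 and Akr1b8 in rodents had a median log2 fold change of 0.18 over 12 tested members, with 9 above 0, where 51.8% of all genes were. By limma 0 passed, and 2 were higher at an unadjusted p under 0.05, against 7.16% of all genes. Without corn oil replicate 3 the median was 0.0655. The 2 higher were Txnrd1, thioredoxin reductase, at 0.59 ± 0.16 (SE, limma adjusted p = 0.230) and Cyp1a2, an AhR-induced P450, at 0.47 ± 0.15 (SE, limma adjusted p = 0.269). The Txnrd1 value came from probe A_44_P456738. Its probe A_44_P554454 also lay higher without overlap, as 11.8% of all probes did, while A_44_P134070 and A_64_P076475 overlapped between the groups. Cyp1a1, the most AhR-sensitive P450, was well above background on 1 of 3 phenolphthalein arrays and 0 of 3 corn oil arrays. Nqo1, a quinone reductase also raised in foci, was at 0.06 ± 0.43 (SE). Other aldo-keto reductases and aldehyde dehydrogenases had a median of -0.05 over 15 members, with 0 past the threshold in limma. Akr1b1, from the same cluster as Akr1b8, was at -0.48 ± 0.18 (SE) and Aldh1a3 at -0.49 ± 0.18, with adjusted p of 0.304 and 0.293 in limma. Each was lower at an unadjusted p under 0.05, as 8.11% of all genes were.

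Other genes raised in rat foci gave 16 tested members, and 0 passed in limma. At an unadjusted p under 0.05, 5 were higher and 2 lower, against 7.16% higher and 8.11% lower among all genes, and the median was 0.15. The 5 higher were Tkt, Txnrd1, Gsta5, Ephx1 and Gpx2, while the names of the 2 lower are not reported here. Gstp1, the placental glutathione S-transferase most used to count rat foci, read 3.47, 3.41 and 3.62 with phenolphthalein, against 3.81, 3.42 and 3.65 with corn oil. The log2 fold change of this Gstp1 probe, A_43_P13342, was -0.13 ± 0.12 (SE, limma adjusted p = 0.650), with overlapping groups. The other Gstp1 probes lay lower with phenolphthalein without overlap, as 9.24% of all probes did. Probe A_44_P182221 read 0.743 to 0.875 with phenolphthalein, against 1.097 to 1.223 with corn oil. Probe A_64_P170600 read 1.229 to 1.469 with phenolphthalein, against 1.482 to 1.719 with corn oil. Tkt, transketolase of the pentose phosphate pathway, was at 0.31 ± 0.08 (SE, limma adjusted p = 0.210), and every phenolphthalein animal lay above every corn oil animal. Gpx2, a glutathione peroxidase named after its values were seen, had the highest value of the list, 1.55 ± 0.59 (SE, limma adjusted p = 0.309). Its probe A_64_P051430 read -2.45, -0.99 and 0.0080 with phenolphthalein, against -2.64, -2.64 and -2.80 with corn oil. Its probe A_64_P059565 read -4.03, -2.23 and -1.29 with phenolphthalein, against -3.87, -4.16 and -4.15 with corn oil. With both, phenolphthalein replicates 2 and 3 stood above the 4 other animals, while phenolphthalein replicate 1 lay near or among the corn oil animals. Without corn oil replicate 3 the median of this list was -0.070.

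Other fetal liver and oncofetal genes had a median of -0.18 over 14 tested members, 11 of them below 0, where 48.2% of all genes were, and 0 past the threshold in limma. At an unadjusted p under 0.05, 3 were higher, Epcam, Cdkn1c and Aldoc, and 2 were lower, where 7.16% of all genes were higher and 8.11% lower. The Aldoc value came from probe A_64_P064909. Its probe A_64_P056558 read -4.245 to -3.875 with phenolphthalein, against -4.377 to -3.666 with corn oil, with overlapping groups. Cdkn1c, an imprinted inhibitor of the cell cycle named after its values were seen, had the highest value of the list at 0.54. Its probe A_44_P223978 read 0.33, 0.082 and -0.074 with phenolphthalein, against -0.49, -0.60 and -0.18 with corn oil, without overlap. Its probe A_42_P799390 read -0.96, -0.97 and -1.24 with phenolphthalein, against -1.23, -1.14 and -0.84 with corn oil, with overlapping groups. Hk2, a hexokinase that adult hepatocytes hardly use, was at -0.68 ± 0.15 (SE, limma adjusted p = 0.172) and Pkm, whose M2 form replaces the liver pyruvate kinase in fetal and tumour cells, at -0.37 ± 0.09 (SE, limma adjusted p = 0.209), both without overlap between the groups. The tested Pkm probe was not assigned to an isoform. Dlk1, a fetal surface protein, was well above background on 1 of 3 phenolphthalein and 2 of 3 corn oil arrays, with a log2 fold change of -0.86 ± 0.38 (SE, limma adjusted p = 0.354). Without corn oil replicate 1 the median of the list was -0.027.

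Transcription factors that act on Afp had a median of 0.07 over 15 tested members, with 0 past the threshold in limma. At an unadjusted p under 0.05, 1 was lower, Nfib, and 0 were higher, where 8.11% of all genes were lower and 7.16% higher. Zbtb20, a repressor of Afp after birth in mice, read 0.60, 0.79 and 0.58 with phenolphthalein, against 0.38, 0.33 and 0.62 with corn oil (log2 fold change 0.21 ± 0.11, SE, limma adjusted p = 0.421). Nfib was at -0.22 ± 0.08 (SE, limma adjusted p = 0.313) and Hnf4a, a central hepatocyte factor, at -0.13 ± 0.13. The Nfib value came from probe A_64_P024778. The groups overlapped with its other probes, A_44_P240248, A_44_P456747, A_44_P466108 and A_44_P466111. No probe was matched to Zhx2 by accession. The lowest value, -2.86 for Foxa2, was named after its values were seen and rests on 1 spot, which read -7.35 in phenolphthalein replicate 3, against 1.74 to 3.38 in the 5 other animals.

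Glypicans, syndecans and heparan sulfate enzymes, the family and the sugar chains of Gpc3, had a median of 0.01 over 16 members and 0 past the threshold in limma. At an unadjusted p under 0.05, 1 was higher and 1 lower, where 7.16% of all genes were higher and 8.11% lower. Sdc3 was at -0.38 ± 0.10 (SE, limma adjusted p = 0.215) and Hs2st1, a heparan sulfate sulfotransferase, at 0.38 ± 0.13 (SE, limma adjusted p = 0.273). The Sdc3 value came from probe A_44_P929767. Its probe A_64_P109948 also lay lower without overlap, as 9.24% of all probes did. Its probe A_43_P12972 overlapped, at -3.393 to -2.961 with phenolphthalein, against -3.241 to -3.094 with corn oil. The Hs2st1 value came from probe A_64_P091053, while the groups overlapped with its other probes. Probe A_42_P775635 read 1.630 to 1.836 with phenolphthalein, against 1.694 to 1.967 with corn oil. Probe A_44_P541317 read 1.421 to 1.542 with phenolphthalein, against 1.456 to 1.819 with corn oil. The IGF axis list held receptors and binding proteins of Igf2, and also Igf1, the growth hormone receptor and receptor adaptors. It had a median of -0.03 over 14 members and 0 past the threshold in limma. Of these members, 1 was higher at an unadjusted p under 0.05, where 7.16% of all genes were. Igf2r, the clearance receptor, was at 0.02 ± 0.11 (SE), Igf1 at -0.05 ± 0.07, Insr at 0.33 ± 0.12 (SE, limma adjusted p = 0.289) and Igfals at -0.34 ± 0.15 (SE, limma adjusted p = 0.353). The Insr value came from probe A_64_P085396. Its probe A_44_P179858 also lay higher without overlap, as 11.8% of all probes did, while A_64_P118402 overlapped between the groups.

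**Figure D5:**
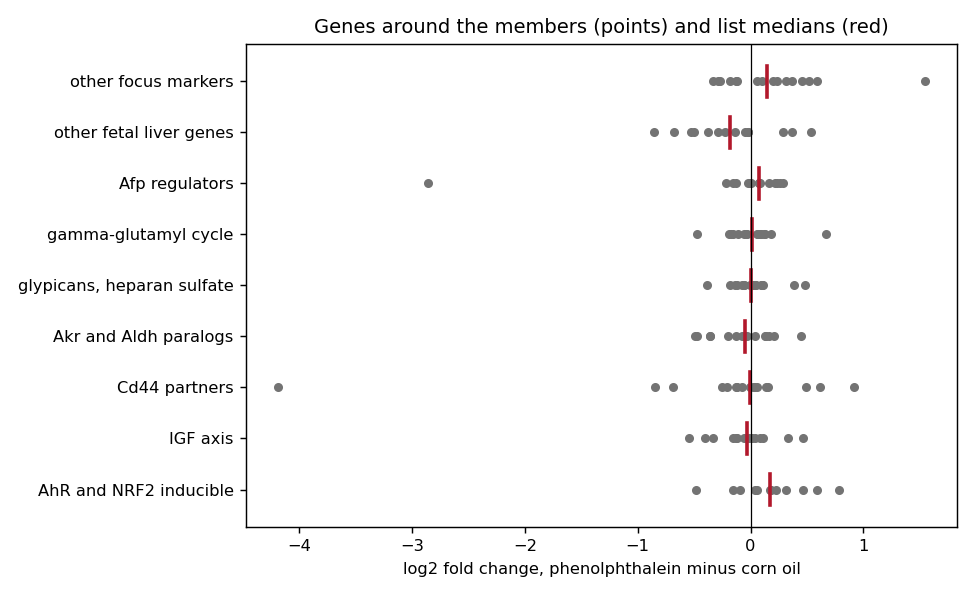
Log2 fold change, phenolphthalein minus corn oil, of every tested gene (points) in 9 lists around the 8 genes, with the list median as a red bar. Medians lie between -0.18 and 0.18, and the points at -4.18 (Rdx) and -2.86 (Foxa2) each rest on 1 low spot.

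The remaining cell type lists each had 0 genes past the threshold in limma. At an unadjusted p under 0.05, the hepatocyte list had 0, the stellate and endothelial lists 1 lower each and the proliferation list 1 higher. Of all genes, 8.11% were lower and 7.16% higher at that p. Hepatocyte markers had a median of 0.07 over 12 genes, with Alb at 0.01 ± 0.07 (SE), Arg1 at 0.30 ± 0.19 and Fgb at 0.10 ± 0.07. Stellate cell and fibroblast markers had a median of -0.12 over 9 genes, with Col1a1 at -0.48 ± 0.14 (SE) and Dcn at -0.51 ± 0.26, and endothelial markers one of -0.17 over 7, with Cdh5 at -0.29 ± 0.09 and Oit3 at -0.34 ± 0.14. The Cdh5 value came from probe A_64_P145597. Its probe A_43_P19735 overlapped, at -2.532 to -2.407 with phenolphthalein, against -2.617 to -2.203 with corn oil. Proliferation genes had a median of -0.02 over 10, with Mcm7 at 0.32 ± 0.08 (SE) and Cdk1 at -0.29 ± 0.23. The Mcm7 value came from probe A_64_P081501. Its probe A_43_P23108 read -1.383 to -1.273 with phenolphthalein, against -1.339 to -1.254 with corn oil, with overlapping groups.

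For each of the 7 detected genes, the other genes with the most similar pattern over the 6 arrays were found by Pearson r of the log2 signal among 10773 genes, as a description of 6 arrays that share slide and scan day within each group. They were Plpbp and Uck1 for Afp (0.997 and 0.996), Rfc3 and Golgb1 for Igf2 (both 0.98), and Kif26a (0.99) and Tmem81 (0.98) for Gpc3. For Cd44 they were Prpmp5 and Zbed4 (both 0.98), and for Ggt1 Jam2 and Slc25a14 (both 0.98). For Akr1b8 they were Pom121 (0.99) and Or8b46 (0.97), and for Aldh3a1 Golgb1 and Atoh1 (both 0.99). Golgb1 was named for Igf2 and for Aldh3a1, where only probe A_43_P12705 was used. The 2 Aldh3a1 probes did not run together over the 6 arrays (r = -0.47).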

How the data were processed

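Total liver RNA from 6 rats carried Cy3 on Agilent 1-colour arrays, per the labels. Each deposited scanner file gives spot intensity written by Agilent's Feature Extraction software, 10.7.1.1 per the file headers and 10.7 in the submitters' processing notes, background-subtracted and detrended, with no scaling across arrays. A deposited value table, on a linear scale, gives these intensities after division by a factor for each array, and served as an alternative.

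Here log2 of the processed signal minus the array's 75th percentile was used, with outlier-marked spots (4 to 14 per array) set missing, and no spot was saturated. Probes were named by unversioned accession through RefSeq (GRCr8), and 27460 of 61657 probes matched 1 gene. Probes that at least 3 arrays called well above background were fitted with limma 3.58.1 (R 4.3.3). For lists, the brightest probe stood for each of 11434 genes. List counts exclude the 8 genes.

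The 8 genes, the lists and the motifs were chosen with earlier results of these data known. Genes named are all probes of the 8, the 2 smallest p of each list, the most similar genes and 18 fixed genes, besides Rdx, Gpx2, Foxa2, Cdkn1c, Aldoc, Gsta5 and Ephx1, which were named after their values were seen, and 1 of the fixed genes is not reported here. Alternatives covered background correction, scaling, detection filter, prior, marked spots, masking of dim columns, left-out arrays, a replicate block and the mean of a gene's probes. The number of arrays limits the precision. Same-numbered samples did not deviate together (r of -0.04, 0.02 and 0.03 for replicates 1 to 3).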

Additional observations from a re-analysis of the deposited data

How the results depend on the processing

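The count of the 8 genes' probes past the threshold was 0 in all 16 alternative settings, and the count of their genes was 0 in all 17. Over all probes, 19 passed, and 0 did with no detection filter or with the replicate number as a block. Leaving out 1 array gave 0 to 5 probes. Over all genes, 7 passed, 0 did with the replicate block, and 0 to 6 did without 1 array. Leaving out 1 array turned the sign of 6 log2 fold changes. The 5 that turned without corn oil replicate 2 were those of Gpc3 A_64_P060874 (-0.18 to 0.45 over the 6 arrays left out), A_42_P674000 (-0.52 to 1.099) and A_44_P535568 (-0.20 to 1.101), of Igf2 (-0.035 to 0.34) and of Cd44 A_64_P080817 (-0.26 to 0.045). Aldh3a1 A_64_P067654 turned without corn oil replicate 1 (-0.013 to 0.31). The other 184 of 190 values of the 12 probes kept their direction and their side of the threshold. Both Cd44 probes kept an unadjusted p under 0.05 except in 7 settings. With a median shift, with the replicate block and without phenolphthalein replicate 1, corn oil replicate 1 or corn oil replicate 2, A_64_P130995 alone did, and with normexp or without phenolphthalein replicate 2 neither did. Afp was under 0.05 with normexp (0.0222) and without phenolphthalein replicate 1 (0.0154). The causes were not tested. List medians moved by more than the replicate spread in 35 cases and by less in 237. Signals near or below the lowest value called above background, -5.49 to -5.13, limit A_44_P535568 of Gpc3 and A_64_P130995 of Cd44. They also limit Gpc3 A_42_P674000, which read -6.62 in corn oil replicate 2. The replicate number is no stated pairing, and the blocked fit changed no call of the 8 genes.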
